A study of Arabidopsis thaliana with 4 samples.

Results

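A set of 104 nuclear genes had about 2-fold to 4-fold higher signal in dark-grown phyA phyB seedlings than in the wild type and were not recognised as storage protein, oleosin or late embryogenesis abundant (LEA) genes. The members were chosen on the measured difference itself. Intensities were put on the scale log2(intensity + 70.1), and the brightest 60% of probe sets, 13648 of 22746, were kept. A member had both phyA phyB arrays above both wild-type arrays, a mean difference from 1 up to but below 2, and a probe set assigned to a single gene. Of the kept probe sets, 200 met the range (1.47% of 13648), and 116 of these had a single gene. A further 12 genes were left out as storage protein, oleosin or LEA genes (9 of them LEA), which gave 104 of 7336 kept single-gene probe sets. Because the contrast chose the members, their differences between the genotypes are a description and carry no test.

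The phyA phyB seedlings carried the alleles phyA-211 and phyB-9 and the wild type was Columbia, with 2 Affymetrix ATH1 arrays each. Per the labels, seed on 0.8% agar was chilled at 6 °C for 5 days, exposed to white light for 1 h at 22 °C, and then grown in full darkness for 3 days before whole seedlings were harvested. The design text names the genotypes as the variable. The comparison asks what differs between seedlings without these photoreceptors and the wild type after 1 h of white light and 3 days of darkness. Nothing in the labels says whether replicates came from separate cultures. Summed intensity ran from 76027250 to 77974921 over the 4 arrays. Among probe sets with a single gene in the annotation, 0 were named PHYA or PHYB. Probe sets not listed in the annotation were not searched for these genes, so the genotypes were not checked on the mutated genes here. Of 11 marker genes of the maturing embryo or dry seed, 4 of endosperm and 3 of epidermis, 0 had a kept probe set with a single gene. PORB, a protochlorophyllide oxidoreductase typical of etiolated tissue, had 100743 and 62062 units in phyA phyB and 59615 and 63173 units in the wild type. PYK10, a beta-glucosidase of roots, had 116284 and 107952 units in phyA phyB and 112003 and 125714 units in the wild type.

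Phytochromes are red and far-red light receptors, and in a seed they help decide whether germination starts. Phytochrome B is known for the reversible response to red light and phytochrome A for responses to very low amounts of light. As a seed dries it stores transcripts made during maturation, and abscisic acid maintains that programme. After germination these transcripts disappear while reserves are digested and an etiolated seedling elongates. In whole-seedling RNA, fewer cells of a type and less RNA per cell cannot be told apart.

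Gene symbols other than the locus code were available for 11 members, and 93 were named by locus code alone. For 60 of the 93 a protein family is given below as general background on the Arabidopsis genome, since the reference table used here holds no descriptions. For 33 members no family is given. All 104 probe sets were of the type that ends in _at alone, which the array maker designed for single transcripts. One member, AT1G64270, is listed as a pseudogene.

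The members' median intensity was 2260 and 1590 units on phyA phyB arrays 1 and 2, against 783 and 774 units on wild-type arrays 1 and 2. Over all kept probe sets the medians were 2340 and 2380 units in phyA phyB, against 2310 and 2270 units in the wild type. Intensities of different probe sets depend on their sequences, so an order by intensity is one of probe sets and not of transcript levels. The median log2 difference was 1.22 over the members, and 0.00 over all kept probe sets. In limma, 0 of 104 members had an adjusted p under 0.05 and the lowest was 0.123, for AT3G19920, while 0.0879% of all kept probe sets passed in the upward and 0.00733% in the downward direction. At an unadjusted p under 0.05 there were 88 of 104 members, beside 4.02% of all kept probe sets higher and 3.22% lower. The rule used this contrast, so these counts say nothing about the members beyond their selection.

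**Figure D1:**
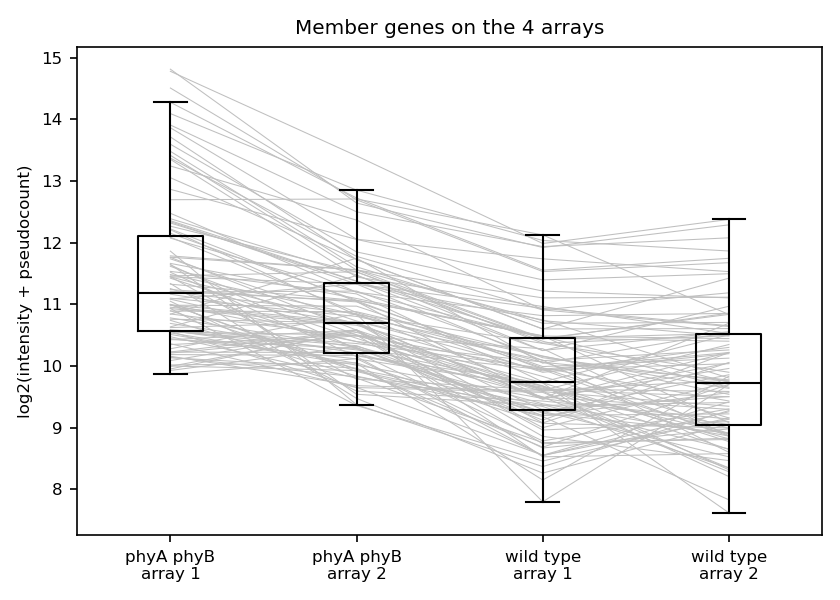
Signal of the 104 members on each array, as log2(intensity + pseudocount) on the vertical axis, with phyA phyB arrays on the left and wild-type arrays on the right. Each grey line is a gene, and each box gives the median, the quartiles and whiskers to the farthest gene within 1.5 box heights. The median intensity was 2260 units on phyA phyB array 1 and 1590 units on array 2, against 783 and 774 units on the wild-type arrays.

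The mutant arrays did not contribute equally, and they also differed over the whole array. Over the kept probe sets the correlation (Pearson, log2 scale) between the 2 phyA phyB arrays was 0.917, and between the 2 wild-type arrays 0.95. Mutant array 1 correlated with the wild-type arrays at 0.9 and 0.886, and mutant array 2 at 0.947 and 0.936, above its correlation with mutant array 1. The part of this in the members' differences was not tested. Against the wild-type mean, the members' median difference was 1.54 on phyA phyB array 1 and 0.97 on array 2. Array 1 was above array 2 for 86 of 104 members (82.7%), compared with 47.3% of all kept probe sets. It was above by 1 or more on the log2 scale for 33 members (31.7%), compared with 4.05% of all kept probe sets, and array 2 was above by as much for 0 members. The rule did not use the order of the mutant arrays, but it selected a high mutant mean. An array that departs more from the wild type can raise that mean more often. The shares over all kept probe sets are therefore not a matched baseline, and how far selection shaped the order was not tested. In 42 members (40.4%) both mutant arrays were at least 1 above the wild-type mean, beside 159 of all kept probe sets (1.17%). The rule itself required a mean difference of at least 1. The 12 left-out storage, oleosin and LEA genes had a median of 2.28 on array 1 and 0.95 on array 2, and the 30 single-gene probe sets with a difference of 2 or more without overlap had 3.74 and 1.75. On array 2 the members' median was close to that of the left-out genes, and on array 1 it was lower. Members and left-out genes met the same range of mean difference, so this describes the selected genes only.

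**Figure D2:**
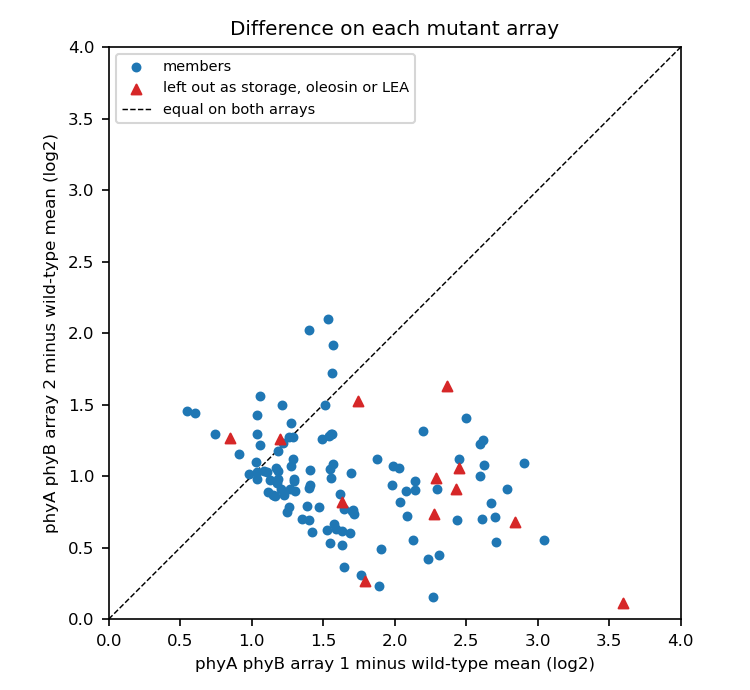
Log2 difference from the wild-type mean on phyA phyB array 1 (horizontal) and array 2 (vertical) for the 104 members (circles) and the 12 left-out storage, oleosin and LEA genes (triangles). The dashed line marks equal differences, and 86 of the 104 members lie below it.

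The gap between the mutant arrays was wider in the members of highest intensity than in the others. This split uses the mean over all 4 arrays, which a high mutant array or a low wild-type array itself moves, so it describes the members and does not separate intensity from spread. Among the 35 brightest members by mean over 4 arrays, the median gap, array 1 minus array 2, was 1.18 and the wild-type arrays differed by 1 or more for 2 genes. Among the 35 in the middle the gap was 0.30 and 5 genes had such a wild-type difference. Among the 34 dimmest the gap was 0.33 and 10 genes had it. Over all members, 17 had wild-type arrays that differed by 1 or more (16.3%), compared with 4.17% of all kept probe sets. A low wild-type array helps a gene meet the rule, so this is not a matched baseline either. The members were also dimmer, with a median mean log2 signal of 10.29, against 11.19 over all kept probe sets. Wild-type array 2 was the lower of the pair in 12 of the 17. The widest gap between wild-type arrays was that of AT1G11320, with 1095 and 1084 units in phyA phyB and 777 and 127 units in the wild type. Its log2 difference of 1.51 rests on the lower wild-type array. The neutral ceramidase family gene AT5G58980 was similar with the arrays exchanged, at 1174 and 1770 units in phyA phyB and 153 and 761 units in the wild type.

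Among regulators, EEL had 5301 and 2782 units in phyA phyB, against 1151 and 1437 units in the wild type. EEL encodes a bZIP transcription factor that acts on the promoters of late seed maturation genes, in competition with ABI5, the bZIP factor of abscisic acid response. Its mean log2 signal was 11.93 ± 0.65 in phyA phyB and 10.41 ± 0.21 in the wild type (SD, n = 2 each). That the groups did not overlap was required of every member by the rule. The other 8 kept genes with a bZIP symbol were not members, with differences from -0.41 for BZIP61 to 0.05 for BZIP28. Neither they nor EEL passed in limma, beside 0.0879% of all kept probe sets higher and 0.00733% lower. AT5G01300, of the phosphatidylethanolamine-binding family that also holds the flowering regulators FT and TFL1, was placed by family in the transcription and signalling group. It had the highest probe set intensity of that group. It had 19791 and 6706 units in phyA phyB, against 2939 and 3370 units in the wild type, a difference of 1.85. Both mutant arrays were high and array 1 was the higher.

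AT3G15260 belongs to the protein phosphatase 2C family, some members of which are negative regulators of abscisic acid signalling. It had 4716 and 2047 units in phyA phyB, against 642 and 1587 units in the wild type, where the second array came close to the second mutant array. AT4G34290, with a SWIB domain known from chromatin remodelling complexes, had 4867 and 2880 units in phyA phyB, against 1319 and 1787 units in the wild type. The DEK domain gene AT5G55660, of a family of chromatin proteins, differed by 1.41, with wild-type arrays at 1370 and 472 units. The calmodulin-binding protein gene AT4G31000 differed by 1.31 and was higher on mutant array 2, at 1019 and 1472 units in phyA phyB against 429 and 479 units in the wild type. AGL95, a MADS-box gene, lay at the lower bound, with 967 and 991 units in phyA phyB and 468 and 441 units in the wild type. Its arrays agreed closely within each genotype.

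The 11 members that act in protein breakdown or restrain it had a median difference of 1.07. BETA-VPE and ALPHA-VPE encode vacuolar processing enzymes, cysteine proteases that cleave proteins in the vacuole. The beta enzyme is known for processing storage proteins in seeds, and the alpha enzyme from vegetative organs. BETA-VPE had 15328 and 5730 units in phyA phyB, against 3853 and 4260 units in the wild type. ALPHA-VPE had 951 and 1425 units in phyA phyB, against 779 and 368 units in the wild type. BETA-VPE was therefore highest on mutant array 1 and ALPHA-VPE on mutant array 2, and the lower wild-type array set much of the size for ALPHA-VPE. The 2 remaining genes of the family were not members. GAMMA-VPE, the vegetative enzyme tied to cell death, differed by -0.36 (adjusted p = 0.786, limma) and DELTA-VPE, of the seed coat, by 0.13 (adjusted p = 0.94, limma). BETA-VPE and ALPHA-VPE did not pass in limma either.

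AT2G38870, a potato inhibitor I type gene whose relatives block serine proteases, had 10394 and 2718 units in phyA phyB, against 1929 and 1407 units in the wild type. AT1G47540, of the knottin family that holds trypsin inhibitors, had 3073 and 1385 units in phyA phyB, against 913 and 982 units in the wild type. In both, mutant array 1 was more than 2 times mutant array 2. Genes of protein tagging followed. The RING domain gene AT1G17145 had 5120 and 2504 units in phyA phyB, against 1891 and 1542 units in the wild type. The F-box family genes AT5G27750 and AT5G56380, whose relatives pick substrates for ubiquitin ligases, differed by 1.74 and 1.06. AT2G18600, of the ubiquitin-conjugating enzyme family, differed by 1.13. MAP1C, a methionine aminopeptidase that trims the first residue of new proteins, had 2725 and 2510 units in phyA phyB, against 1651 and 825 units in the wild type. Its kept relatives MAP1A and MAP1D differed by 0.12 and -0.01, and neither they nor MAP1C passed in limma. The exopeptidase family gene AT1G67420 and the asparagine amidohydrolase family gene AT2G44420 differed by 1.02 and 1.07.

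Of the 10 members of sugar, redox and specialised metabolism, BGLU19 had the highest intensity, 28764 and 6332 units in phyA phyB, against 3815 and 4940 units in the wild type. BGLU19 is a beta-glucosidase, of the enzymes that release compounds from their glucosides. It had one of the widest gaps between mutant arrays, 2.17, and mutant array 2 was only 0.54 above the wild-type mean. The other 7 kept genes with a BGLU symbol were not members, with differences from -1.05 for BGLU46 to 0.47 for BGLU44. Neither they nor BGLU19 passed in limma, beside 0.0879% of all kept probe sets higher and 0.00733% lower. PYK10, a beta-glucosidase under another symbol and not in this count, differed by -0.08 (adjusted p = 0.938, limma). AT5G01670, an aldo-keto reductase family gene, had 17436 and 7335 units in phyA phyB, against 4133 and 3664 units in the wild type. Aldo-keto reductases reduce reactive aldehydes and sugars. AT3G26770, of the short-chain dehydrogenases, had 4671 and 1747 units in phyA phyB, against 998 and 807 units in the wild type. AT1G24735, related to the caffeoyl-CoA O-methyltransferases of phenylpropanoid synthesis, differed by 1.74, with 2520 and 642 units in phyA phyB and 238 and 464 units in the wild type. In these 3 genes mutant array 1 was the higher by more than 1 on the log2 scale.

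UGT73B4, a UDP-glycosyltransferase that conjugates sugars to small molecules, followed the opposite order. It had 1766 and 3376 units in phyA phyB, against 988 and 1425 units in the wild type, and at 1.00 it lay at the lower bound. Its neighbour in gene order, UGT73B5, differed by 0.98 without overlap and fell just short of the range, with 1194 and 1570 units in phyA phyB and 528 and 825 units in the wild type. Over the 27 kept UGT genes the median difference was -0.17, and 0 passed in limma. At an unadjusted p under 0.05 there were 2 higher, UGT73B5 and the member UGT73B4, and 1 lower, UGT85A2 (-0.998), beside 4.02% of all kept probe sets higher and 3.22% lower. The chalcone and stilbene synthase family gene AT4G00040 differed by 1.09, the aminotransferase family gene AT3G05190 by 1.43 and the glycosyltransferase family gene AT5G04480 by 1.35. The oxidoreductase family genes AT3G09580 and AT1G19690 differed by 1.05 and 1.17.

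The 7 members of energy metabolism and mitochondria had a median difference of 1.17, and mutant array 1 was above array 2 in all 7. AT5G65750 encodes the E1 component of 2-oxoglutarate dehydrogenase, a step of the tricarboxylic acid cycle. It had 5049 and 2587 units in phyA phyB, against 1148 and 1936 units in the wild type. AT5G25450, a subunit of the cytochrome bc1 complex of respiration, had 3178 and 2119 units in phyA phyB, against 1358 and 785 units in the wild type. PDC2, a pyruvate decarboxylase of ethanolic fermentation, had 2349 and 2037 units in phyA phyB, against 948 and 1050 units in the wild type. The arrays of PDC2 lay close together within each genotype. AT5G35170, of the adenylate kinases that balance adenine nucleotides, had 4287 and 1801 units in phyA phyB, against 884 and 1107 units in the wild type. The mitochondrial carrier gene AT1G07030, the glycine cleavage T-protein related gene AT4G12130 and the complex I assembly factor family gene AT3G28700 differed by 1.06, 1.17 and 1.05.

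Lipid genes among the members numbered 6. AT1G33265, of a membrane protein family that exports fatty acids from plastids, had 7401 and 4184 units in phyA phyB, against 2629 and 2822 units in the wild type. AAE16, an acyl-activating enzyme that attaches fatty acids to a carrier, had 5180 and 2594 units in phyA phyB, against 1328 and 1761 units in the wild type. The related AAE15 differed by -0.02 (adjusted p = 0.994, limma), and AAE16 did not pass in limma either. AT3G14360, of the triacylglycerol lipases that split stored oil, had 2302 and 2062 units in phyA phyB, against 918 and 1122 units in the wild type, with close values within each genotype. AT1G29680, of the DUF1264 family, whose maize member is an oil body protein, had 3406 and 1464 units in phyA phyB, against 708 and 804 units in the wild type. The glycerol acyltransferase family gene AT3G05510 differed by 1.32. Of 23 listed genes of oil breakdown, 21 matched the reference table by symbol. Only 3 had a kept probe set with a single gene, and the others were not read. The 3 were SDP1, the main oil lipase of seedlings (-0.48), AIM1 of beta-oxidation (-0.04) and ICL, the isocitrate lyase of the glyoxylate cycle (-0.04). None of the 3 was a member. In limma 0 of 3 passed in either direction, beside 0.0879% of all kept probe sets higher and 0.00733% lower. At an unadjusted p under 0.05 in limma there were 0 of 3, beside 4.02% higher and 3.22% lower. With shares this low, 0 of 3 does not show that these genes were unchanged.

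**Figure D3:**
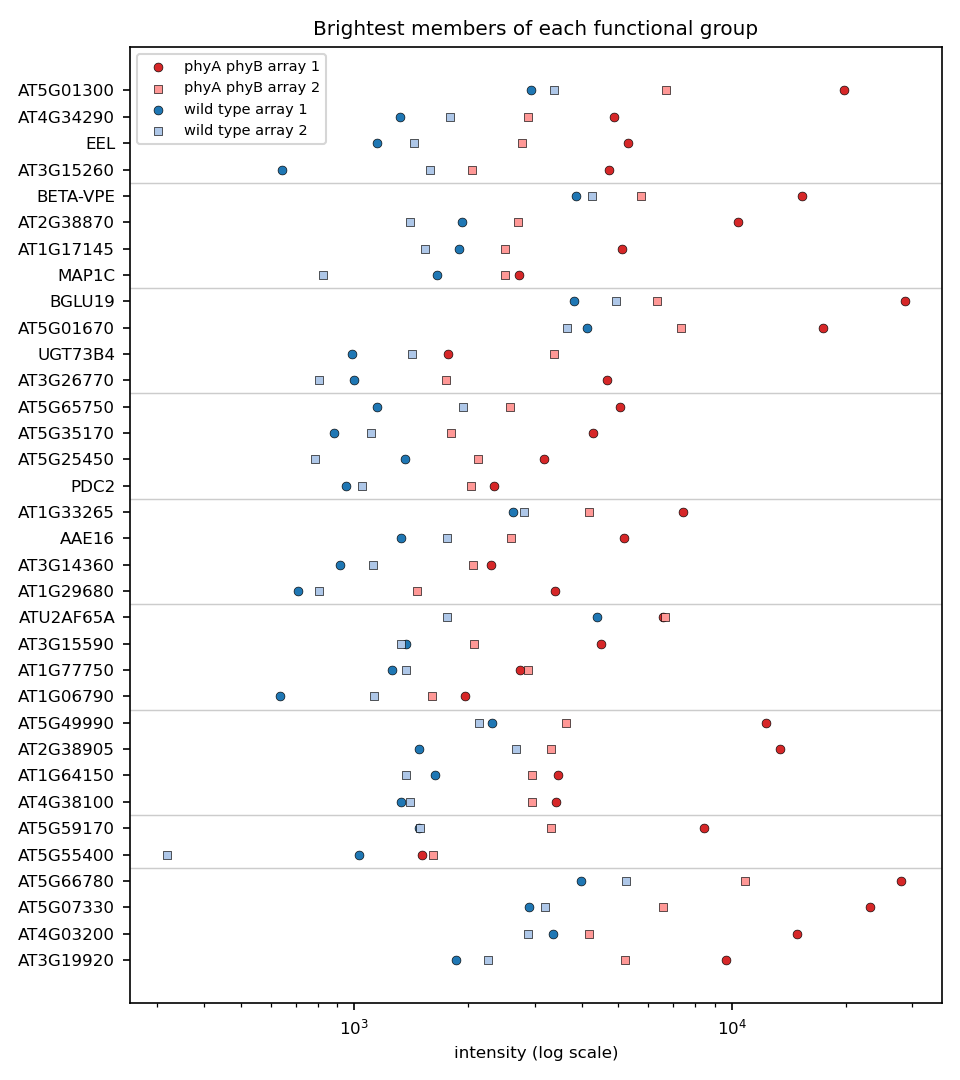
Intensity on each array (log axis) of the brightest members of each functional group, up to 4 a group, with grey lines between groups. From the top the groups are transcription and signalling, protein breakdown and inhibitors, sugar, redox and specialised metabolism, energy and mitochondria, lipids, RNA and ribosomes, membranes and transport, cell surface and cytoskeleton, and members with no family given. BGLU19 reaches 28764 units on phyA phyB array 1 and 6332 units on array 2, against 3815 and 4940 units in the wild type, and PDC2 keeps both mutant arrays close, at 2349 and 2037 units.

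The largest functional group was RNA and ribosomes, with 19 members. Its median intensities were 1470 and 1080 units on the phyA phyB arrays, against 533 and 528 units in the wild type. Its median gap between mutant arrays was 0.41, and 3 of 19 had a gap of 1 or more. In splicing, ATU2AF65A, the large subunit of the factor that recognises the 3' splice site, had 6576 and 6631 units in phyA phyB, against 4403 and 1759 units in the wild type. The mutant arrays were alike and the wild-type arrays differed by 1.29 on the log2 scale. The gene for small nuclear ribonucleoprotein D1, AT3G07590, differed by 1.21. Of RNA decay and processing, RRP41L, related to a subunit of the RNA exosome, had 2052 and 703 units in phyA phyB, against 621 and 495 units in the wild type. The DEAD-box RNA helicase gene AT4G34910 differed by 1.64 and had close values within each genotype, 1234 and 1381 units in phyA phyB and 358 and 385 units in the wild type.

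Ribosomal protein genes were AT1G15250, for L37, and AT1G77750, for S13. The first had 1979 and 894 units in phyA phyB, against 510 and 158 units in the wild type, and the second had 2752 and 2887 units in phyA phyB, against 1255 and 1371 units in the wild type. The S13 gene had its arrays close in both genotypes, and the L37 gene in neither. The pentatricopeptide repeat genes AT3G15590 and AT3G14330, whose relatives bind organelle RNA, differed by 1.14 and 1.37. AT3G15590 had 4488 and 2077 units in phyA phyB, against 1366 and 1325 units in the wild type. AT1G06790, of the Rpb7 family of RNA polymerase subunits, had 1965 and 1603 units in phyA phyB, against 635 and 1125 units in the wild type. Modifying enzymes were the RNA methyltransferase family gene AT3G21300 (1.08), the NOL1/NOP2/Sun family gene AT5G26180 (1.23), the tRNA guanine methyltransferase family gene AT5G17660 (1.00), the NAT10-related acetyltransferase gene AT1G10490 (1.10) and the diphthine synthase family gene AT4G31790 (1.14), which acts on an elongation factor. The remaining genes of this group were the WD-40 repeat genes AT3G21540 (1.36) and AT5G11240 (1.30), the Era-like GTP-binding gene AT5G66470 (1.00), the translin family gene AT2G37020 (1.12) and the RNase P subunit family gene AT5G41270 (1.01).

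**Figure D4:**
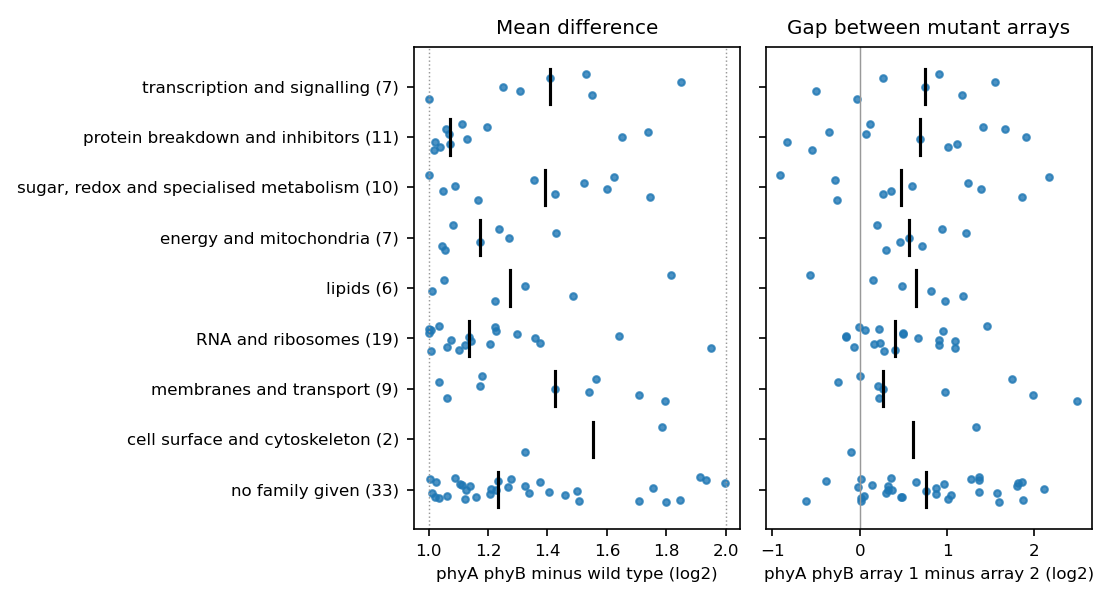
Members by functional group, with the number of genes in brackets. The left panel gives the mean log2 difference, phyA phyB minus wild type, between dotted lines at the bounds of the rule, and the right panel gives mutant array 1 minus mutant array 2. Points are genes and black bars are group medians. The gap has a median of 0.41 for RNA and ribosomes and 0.69 for protein breakdown and inhibitors.

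Membrane and transport genes numbered 9. AT5G49990, of the xanthine and uracil permeases, had 12331 and 3625 units in phyA phyB, against 2310 and 2134 units in the wild type. AT2G38905, of the small membrane proteins known for induction by cold and salt, had 13390 and 3319 units in phyA phyB, against 1483 and 2681 units in the wild type. AT1G13340, of the IST1 family of endosomal sorting, had 3658 and 593 units in phyA phyB, against 261 and 551 units in the wild type. These 3 had gaps of 1.75, 1.99 and 2.49 between mutant arrays, and in the last the second mutant array was close to the second wild-type array.

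The other 6 membrane genes had gaps under 1. AT4G38100, CURVATURE THYLAKOID 1D, of the proteins that bend thylakoid membranes, had 3412 and 2949 units in phyA phyB, against 1330 and 1407 units in the wild type. AT1G64150, of the UPF0016 family of manganese and calcium transporters, had 3465 and 2953 units in phyA phyB, against 1636 and 1367 units in the wild type. Both genes had arrays that lay close within each genotype. The MATE efflux gene AT3G03620 differed by 1.54, the VPS13-related gene AT3G50380 by 1.42, the LMBR1-like gene AT5G65290 by 1.18 and the major facilitator gene AT5G10190 by 1.03. At the cell surface, the extensin-like gene AT5G59170 had 8441 and 3323 units in phyA phyB, against 1485 and 1491 units in the wild type. The fimbrin family gene AT5G55400, for an actin-bundling protein, had 1509 and 1618 units in phyA phyB, against 1026 and 318 units in the wild type.

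The 33 members with no family given included the probe set with the highest mean of all members. AT5G66780 had 28087 and 10810 units in phyA phyB, against 3993 and 5255 units in the wild type. AT5G07330 had 23261 and 6572 units in phyA phyB, against 2893 and 3204 units in the wild type. AT4G03200 had 14852 and 4195 units in phyA phyB, against 3349 and 2892 units in the wild type. In these 3 genes mutant array 1 was more than 2 times mutant array 2. Whether AT5G66780 or AT5G07330 belongs to the LEA families was not settled here. AT3G19920 had 9641 and 5217 units in phyA phyB, against 1858 and 2263 units in the wild type, a mean log2 signal of 12.81 ± 0.62 and 11.05 ± 0.19 (SD, n = 2 each). The remaining 29 differed by 1.00 to 1.93, and 13 of the 33 had a gap of 1 or more between the mutant arrays.

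The bounds of the rule fell among genes with similar values. Just inside the lower bound were UGT73B4 (1.000), AT5G17660 (1.001) and AGL95 (1.001), and just below it were AT1G63740 (0.999), AT2G10930 (0.998) and AT1G06560 (0.992). AT5G17660 had 1392 and 965 units in phyA phyB, against 642 and 461 units in the wild type. AT1G63740 had 1376 and 1028 units in phyA phyB, against 543 and 578 units in the wild type. These genes either side of the bound had like values. AT2G10930 had 873 and 1077 units in phyA phyB, against 541 and 374 units in the wild type. AT1G06560 had 1859 and 1699 units in phyA phyB, against 631 and 1160 units in the wild type. Just inside the upper bound were AT5G07330 (1.999), AT1G15250 (1.951) and AT5G43770 (1.934). Just above it were LCR67, a defensin-related gene (2.022), AT1G23070 (2.107) and AT2G38465 (2.111). LCR67 had 45048 and 16380 units in phyA phyB, against 6404 and 6882 units in the wild type. AT1G23070 had 3714 and 865 units in phyA phyB, against 247 and 530 units in the wild type. In both, mutant array 1 was the higher by more than 1 on the log2 scale. AT2G38465 had 3018 and 1112 units in phyA phyB, against 224 and 595 units in the wild type. AT5G43770 had 2871 and 1068 units in phyA phyB, against 304 and 542 units in the wild type.

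Position in the genome was not used to choose the members. By locus code, 23 lay on chromosome 1, 16 on chromosome 2, 23 on chromosome 3, 12 on chromosome 4 and 30 on chromosome 5. The shares were 22.1%, 15.4%, 22.1%, 11.5% and 28.8% of members, beside 25.9%, 14.8%, 20.4%, 14.6% and 24.4% of kept genes. Of the genes next to a member in gene order, 58 were measured, beside 51 members. Their median difference was 0.05, and 14 of 58 (24.1%) were higher on both mutant arrays without overlap, beside 20% of all kept probe sets. No neighbour was itself a member, and 1 had a difference of 1 or more without overlap, the left-out vicilin-like gene AT4G36700 next to ATU2AF65A.

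Few genes of the pathways nearest to these functions could be read. Listed symbols first had to match the reference table. All abscisic acid and protease genes did, as did 16 of 18 antioxidant, 14 of 15 heat shock and 11 of 12 raffinose family genes. A matched gene was read only through a kept probe set with a single gene in the annotation. As 8730 of the 22746 probe sets were not listed there, a gene that was not read was not shown to be dim. Of 48 genes of abscisic acid metabolism and signalling, 2 had a kept probe set with a single gene. These were the member EEL and HVA22C, which differed by 0.29 (adjusted p = 0.837, limma). Of 11 seed proteases, 5 had one, and beside the VPE genes this was APA1, a vacuolar aspartic protease, at -0.33. Of 18 antioxidant enzymes, 2 had one, namely TAPX and SAPX, ascorbate peroxidases of the chloroplast, at 0.80 and -0.14. Of 15 heat shock genes, ATHSP22.0 was read in this way (0.51), and of 12 genes of raffinose family sugars 0 were. In each of these lists 0 genes passed in limma in either direction, beside 0.0879% of all kept probe sets higher and 0.00733% lower. At an unadjusted p under 0.05 in limma there was 1 abscisic acid gene (EEL), 1 protease (BETA-VPE), 1 antioxidant gene (TAPX) and 0 heat shock genes. The shares of all kept probe sets were 4.02% higher and 3.22% lower, and the lists are too short to compare with them. EEL and BETA-VPE are members, chosen on this same contrast, so counting them carries no test.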

How the data were processed

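The deposited values are linear intensities, 1 for each probe set on each array, already scaled by the authors: the 2% trimmed means of the 4 arrays differed by 0.0946%. The software and scaling target are not given in the sources used here, and the depth cannot be read from arrays, whose number limits the precision. The title of wild-type array 1 carries no number, so its number follows accession order. The pseudocount of 70.1 is the 10th percentile of all values, so log2 differences understate dim probe sets. limma 3.58.1 in R 4.3.3 was run on the 13648 kept probe sets with an intensity trend (9.2 degrees of freedom), two-sided, with Benjamini-Hochberg adjustment. It was also run on simulated data, and how many changes it recovered there is not reported here. An exact permutation of 2 against 2 arrays cannot go below a two-sided p of 0.333. P-values measure the spread between these arrays, which may be technical.

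Genes came from the platform annotation (13513 probe sets with 1 gene, 503 with several, 8730 not listed), updated by RefSeq assembly TAIR10.1. The members and lists were chosen with earlier results of these data known. Storage, oleosin and LEA genes were recognised by symbol or general knowledge of the family. Functional groups, planned as keyword classes over all kept genes, were set by hand after the values were seen, because the table holds no descriptions to search. They have no count over other genes, and a storage or LEA gene not recognised this way would have stayed among the members. Values on all arrays are given for up to 4 members of a group, those with the highest mean, and for the 3 genes on each side of each bound. A few more members are given in full, chosen after their values were seen. The families of related genes compared by symbol (1 of which is not reported here), the split by brightness and the gene-order comparison were also chosen after the data were seen. Figures used matplotlib 3.10.9.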

Additional observations from a re-analysis of the deposited data

How the results depend on the processing

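The count of 104 members was 85, 81 and 85 under quantile, median and cyclic loess scaling, 132 without a pseudocount, 123 by mean difference alone and 104 with RefSeq genes only. It was 60 with the pseudocount at the 25th percentile (52 shared with the 104), 613 with dim probe sets included and 38 in the brightest 40%, where fewer genes were eligible. Leaving out 1 array gave 110 to 236: 110 without phyA phyB array 1, 236 without phyA phyB array 2, 219 without wild-type array 1 and 171 without wild-type array 2, of which 45, 73, 76 and 64 were among the 104. Storage and LEA genes new to these sets were not left out. The members' median difference stayed between 1.00 and 1.29 under the other settings and ran from 0.968 to 1.54 with arrays left out. The 13 probe sets called by limma were 3 without the filter and 1 by eBayes without the trend, 9 to 18 under the other settings, and 6 to 422 with arrays left out, on the assumption that a single remaining array varies as the other genotype's do (38 and 422 without phyA phyB array 1 and 2, 6 and 8 without wild-type array 1 and 2). Beyond those noted, the cause was not tested. Of 34 members, 0 moved by over 1.5 times under 5 settings of scaling or pseudocount (0.834 to 2.03), but 25 did with 1 array left out (0.423 to 2.91), 20 without phyA phyB array 1, 7 without phyA phyB array 2, 4 without wild-type array 1 and 3 without wild-type array 2, some in more than 1 case. BGLU19 then ran from 0.537 to 2.71, AT4G03200 from 0.423 to 2.23 and ATU2AF65A from 0.577 to 1.87; their sign is fixed by the rule. No paired analysis was possible because the titles number only 1 replicate alike in both genotypes. The planned promoter motif counts were not run, as no promoter sequence was used here. Without a background signal, nothing here tells how far the dim members lie above it.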
